A study of Mus musculus with 6 samples.

Results

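The 10 T and natural killer (NK) cell marker genes Cd3d, Cd3e, Cd3g, Cd4, Cd8a, Cd8b1, Il7r, Nkg7, Gzma and Gzmb were followed in RNA-seq of mouse liver. They were taken by symbol from a table of read counts for 30029 genes, in which all 10 had a row of their own. Livers labelled KO_HFD (genotype ATP7B knockout) were compared with livers labelled WT_HFD (genotype wild type), with 3 libraries in each group, called KO-labelled and WT-labelled below. Both groups had 24 weeks of high-fat diet, and no liver on another diet was analysed here. Atp7b encodes an ATPase with which hepatocytes export copper. The sources used here do not give strain, sex, age, the knockout allele or whether each library came from its own animal. The p-values therefore cover the spread among these libraries, which could be technical.

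T cells recognise antigen through the T cell receptor, whose signal is carried inward by the CD3 chains, while the coreceptors CD4 and CD8 bind MHC class II and class I molecules. Cytotoxic T cells and NK cells kill by releasing granzymes from granules. Both are resident in liver, where NK and NKT cells are common among lymphocytes. The interleukin-7 receptor chain encoded by Il7r keeps naive and memory T cells alive and also marks innate lymphoid cells. In bulk tissue, fewer or more cells of a type and less or more RNA per cell cannot be told apart.

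Total counts per library ran from 68117601 to 70965999 in the KO-labelled livers and from 57886524 to 67280139 in the WT-labelled livers. Atp7b itself had 1987, 1908 and 2087 counts in the KO-labelled livers, against 909, 1192 and 2051 in the WT-labelled livers (log2 fold change 0.05, adjusted p = 0.939), so its gene total did not check the labels. KO-labelled replicate 3 stood apart for the markers. It held the highest level of 8 of the 10 genes and, in the median gene, 2.59 times the mean level of the other KO-labelled livers. Marker counts ran from 0 to 601 per library. The table did not step evenly in single reads. In every library 4 was the most frequent nonzero count of protein-coding genes (311 to 419 genes, against 72 to 87 genes with a count of 3). Of their counts from 1 to 20, 42.5% to 48.4% per library were multiples of 4. A small count may therefore stand for fewer reads than its number, but what gave these steps is not known.

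The largest differences were a higher level of Il7r and the CD8 chains and a lower level of Cd4 in the KO-labelled livers. All 10 genes passed the filter on low counts and 0 were called at an adjusted p under 0.05 by edgeR's quasi-likelihood test, which called 1.44% of 17606 tested genes (0.932% higher and 0.506% lower). At an unadjusted p under 0.05 there were 2 of the 10 on the higher side, Il7r and Cd8a, and 1 on the lower side, Cd4, against 12% and 7.7% of all tested genes (19.7% in all). The libraries of the groups did not overlap for 4 of the 10, with 3 higher (Il7r, Cd8a and Cd8b1) and 1 lower (Cd4), against 13.7% and 12% of all tested genes (25.7% in all). Of the 10 log2 fold changes 9 were positive, with a median of 0.97, and over all tested genes 48.0% were positive, with a median of -0.02. Cd3d, Cd8b1, Gzma and Gzmb reached the cutoff of the filter in every KO-labelled library but not in every WT-labelled one. They thus passed through the group where they were higher, and the 9 of 10 is not independent of direction. By DESeq2, which called 7.46% of genes higher and 3.15% lower, Il7r and Cd8a were called higher and Cd4 lower. Il7r was also called higher with libraries scaled by total counts (5.34% of genes called higher), with no filter (1.25%) and on counts divided by 4 (2.72%), the last of which also called Cd4 lower (1.2% called lower). None of the 10 was called by limma voom (0.403% of genes) or with a replicate block (0.0227%).

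**Figure D1:**
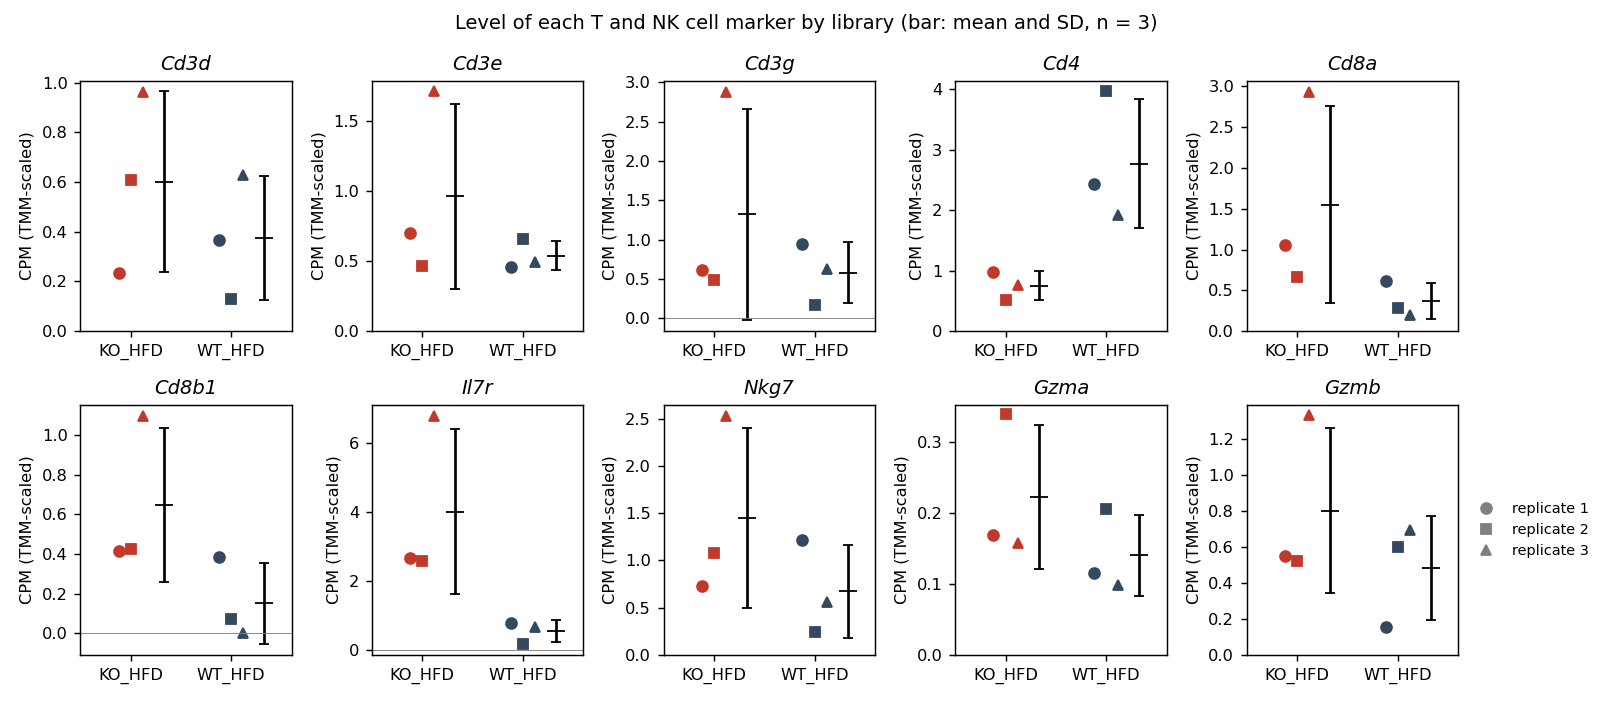
Level of the 10 marker genes in each library, as TMM-scaled CPM, counts relative to library size, on a linear axis of its own for each gene, with KO_HFD libraries on the left of each panel, WT_HFD libraries on the right and bars for the mean and SD of 3. Il7r, Cd8a and Cd8b1 lie above, and Cd4 below, every WT_HFD library, and KO_HFD replicate 3 is the highest library for 8 genes.

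Il7r, the survival receptor, had 204, 183 and 601 counts in the KO-labelled livers, against 41, 10 and 40 in the WT-labelled livers. Its lowest KO-labelled library, at 2.60 CPM (counts scaled to library size), was above its highest WT-labelled one, at 0.790 CPM, and replicate 3 was the highest of the KO-labelled livers. Il7r averaged 4.02 ± 2.40 CPM in the KO-labelled livers and 0.546 ± 0.317 CPM in the WT-labelled livers (SD, n = 3 each). The log2 fold change was 2.87 ± 0.61 (SE), a 7.33-fold difference with an adjusted p of 0.0567, just outside the threshold. Without KO-labelled replicate 3 it was 4.80-fold (adjusted p = 0.109), and without WT-labelled replicate 2 it was 5.52-fold (adjusted p = 0.184).

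Cd8a, the CD8 alpha chain that T cells use as coreceptor for class I molecules and that some dendritic cells also carry, had 81, 47 and 259 counts in the KO-labelled livers, against 32, 15 and 12 in the WT-labelled livers. The groups did not touch, but 66.9% of the KO-labelled counts came from replicate 3. The level was 1.55 ± 1.21 CPM in the KO-labelled livers and 0.366 ± 0.221 CPM in the WT-labelled livers (SD, n = 3 each). Its log2 fold change was 2.09 ± 0.68 (SE, adjusted p = 0.145). Cd8b1, the beta chain that pairs with it on conventional cytotoxic T cells, had 32, 30 and 97 counts in the KO-labelled livers, against 20, 4 and 0 in the WT-labelled livers. The lowest KO-labelled and highest WT-labelled libraries were close, at 0.418 and 0.385 CPM. The 0 allows a level of up to 0.198 CPM in that library, taking 12 counts, or 3 steps of 4, as the limit and counting error only. Its log2 fold change of 2.08 ± 1.12 had an interval from -0.48 to 4.65 (adjusted p = 0.356). Cd8b1 passed the filter on low counts through its KO-labelled libraries, so its place among the tested genes is not independent of its difference. With 1 library left out the fold for Cd8b1 ran from 2.76 without KO-labelled replicate 3, and 2.80 without WT-labelled replicate 3, up to 17.1 without WT-labelled replicate 1. For Cd8a the log2 fold change was 1.24 without KO-labelled replicate 3 and 2.69 without WT-labelled replicate 1.

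Cd4, the coreceptor for class II molecules, went the other way. It had 75, 36 and 68 counts in the KO-labelled livers, against 126, 211 and 116 in the WT-labelled livers. The highest KO-labelled library was below the lowest WT-labelled one, and replicate 3 did not stand out among the KO-labelled livers. The level was 0.753 ± 0.235 CPM in the KO-labelled livers and 2.77 ± 1.06 CPM in the WT-labelled livers (SD, n = 3 each). The log2 fold change was -1.87 ± 0.41 (SE), 3.67-fold lower with an adjusted p of 0.0596. With 1 library left out the log2 fold change stayed between -2.11 and -1.53. Which cells gave the Cd4 RNA was not tested, so shares and ratios of Cd4 counts are not shares of T cells.

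The region before the start of the genes is shown for Il7r and Cd8a, the genes with the widest positive differences, and for Cd3e, a T cell receptor gene whose groups overlapped. Of the 10 genes 8 had an entry among the RefSeq promoters of build GRCm38.p6. The lines give the 250 bases before the start, 5′ to 3′ on the strand of the gene, in lower case with GGAA or its reverse complement TTCC, the core that ETS factors bind, in capitals.
Il7r, chr15:9529877-9530126, minus strand: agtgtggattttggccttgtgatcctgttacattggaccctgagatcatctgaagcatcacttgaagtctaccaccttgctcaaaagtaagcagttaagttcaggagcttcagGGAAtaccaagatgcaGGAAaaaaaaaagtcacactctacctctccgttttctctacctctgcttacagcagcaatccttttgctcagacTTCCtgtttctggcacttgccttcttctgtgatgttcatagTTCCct
Cd8a, chr6:71373177-71373426, plus strand: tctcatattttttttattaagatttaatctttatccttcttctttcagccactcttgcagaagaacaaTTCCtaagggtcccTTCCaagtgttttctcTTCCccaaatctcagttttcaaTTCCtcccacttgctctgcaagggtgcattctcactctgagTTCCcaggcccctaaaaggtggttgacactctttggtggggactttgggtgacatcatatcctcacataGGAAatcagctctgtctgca
Cd3e, chr9:45009612-45009861, minus strand: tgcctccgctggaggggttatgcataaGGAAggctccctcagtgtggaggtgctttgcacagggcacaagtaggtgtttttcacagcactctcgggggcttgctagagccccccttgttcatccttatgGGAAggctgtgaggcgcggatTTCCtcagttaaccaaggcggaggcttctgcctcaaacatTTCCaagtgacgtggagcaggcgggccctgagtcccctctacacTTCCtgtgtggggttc
GGAA on either strand occurred 4 times before Il7r, 6 times before Cd8a and 5 times before Cd3e. It was present before 7 of the 8 genes, Gzmb being the exception, and before 93.5% of 32851 promoters of the same length, whose median was 3 matches. TGTGGT or its reverse complement ACCACA, letters that RUNX factors bind and that can share 1 base with GGAA or TTCC, was absent from the printed windows and present before Nkg7, Gzma and Gzmb, against 14.1% of all promoters. These letter matches are a description of the windows.

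The groups overlapped for all 3 CD3 chains of the T cell receptor complex. The 3 CD3 genes lie together on chromosome 9 (GRCm39), with 1354 bases between Cd3g (44880870 to 44891729, minus strand) and Cd3d (44893084 to 44898637, plus strand), and Cd3e a further 11.4 kb away (44910038 to 44920920, minus strand). Cd3e, whose product holds the complex at the surface, had 54, 33 and 152 counts in the KO-labelled livers, against 24, 35 and 30 in the WT-labelled livers. The lowest KO-labelled library lay inside the WT-labelled range, and only replicate 3 was far above it. Its log2 fold change was 0.84 ± 0.56 (SE), with a 95% interval from -0.44 to 2.12 (adjusted p = 0.463). A lncRNA on the opposite strand, Gm48719, overlaps Cd3e in the table and had at most 3 counts in any library.

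Cd3g, the gamma chain, had 47, 34 and 254 counts in the KO-labelled livers, against 49, 9 and 38 in the WT-labelled livers. Its groups overlapped, 75.8% of the KO-labelled counts came from replicate 3, and the log2 fold change of 1.19 ± 0.83 (SE, adjusted p = 0.490) became -0.08 without that library. Cd3d, the delta chain, had 18, 43 and 85 counts in the KO-labelled livers, against 19, 7 and 38 in the WT-labelled livers. The ranges were interleaved, with a log2 fold change of 0.68 ± 0.73 (SE, adjusted p = 0.678). The intervals of the 3 CD3 genes reached from -0.99 to 3.10 on the log2 scale, so a level several fold higher was not excluded at this depth and spread.

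The cytotoxic granule genes overlapped between the groups. Nkg7, a granule membrane protein of NK and cytotoxic T cells, had 56, 76 and 224 counts in the KO-labelled livers, against 63, 13 and 34 in the WT-labelled livers. WT-labelled replicate 1 exceeded both of the lower KO-labelled livers in level, and the log2 fold change was 1.11 ± 0.67 (SE, adjusted p = 0.421). Gzmb, the granzyme that activates caspases, had 42, 37 and 118 counts in the KO-labelled livers, against 8, 32 and 42 in the WT-labelled livers (log2 fold change 0.73 ± 0.66, adjusted p = 0.610). Gzma, the trypsin-like granzyme, had 13, 24 and 14 counts in the KO-labelled livers, against 6, 11 and 6 in the WT-labelled livers (log2 fold change 0.66 ± 0.71, adjusted p = 0.679). In level each had at least 1 KO-labelled library inside the WT-labelled range. Gzma was the only 1 of the 10 whose highest library was KO-labelled replicate 2. Gzmb belongs to a cluster of similar granzyme genes among which reads could have been split.

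**Figure D2:**
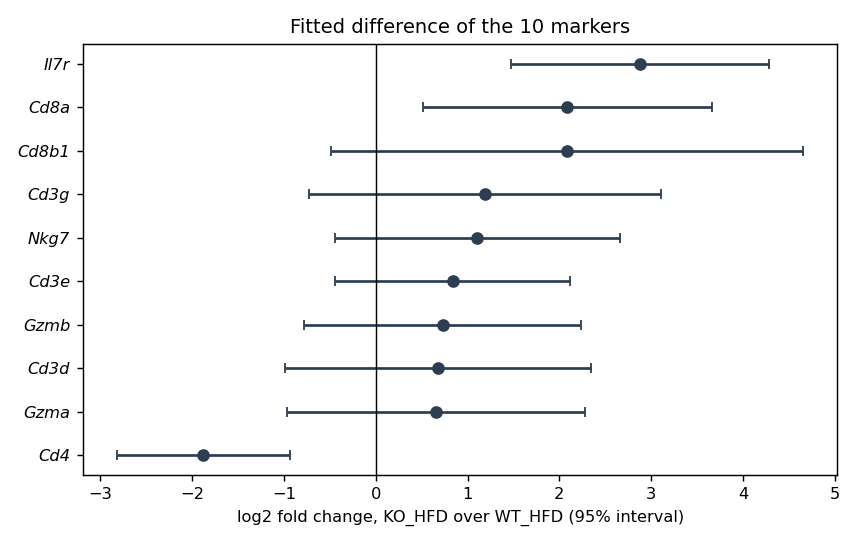
Log2 fold change of KO_HFD over WT_HFD for the 10 marker genes, with the 95% interval from edgeR's quasi-likelihood fit to 3 libraries per group. The intervals of Il7r (1.47 to 4.28), Cd8a (0.52 to 3.66) and Cd4 (-2.81 to -0.93) lie to one side of 0, and the other 7 include it.

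KO-labelled replicate 3 moved most of the values. Without KO-labelled replicate 3 the median log2 fold change of the 10 genes was 0.30 and 8 were positive, and without each of the other 5 libraries it was 0.96 to 1.25 with 9 positive. That replicate gave the lowest value for 8 of the 9 genes with a positive fold change. Gzma was lowest, at 0.25, without KO-labelled replicate 2. Il7r was called without KO-labelled replicate 2 (8.81-fold, adjusted p = 0.0394), where 4.96% of genes were called, and was the only 1 of the 10 called in any of these 6 fits. Without KO-labelled replicates 1 and 3 in turn 0.0607% and 0.184% of genes were called, and without WT-labelled replicates 1, 2 and 3 in turn 2.07%, 0% and 0.0217%.

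**Figure D3:**
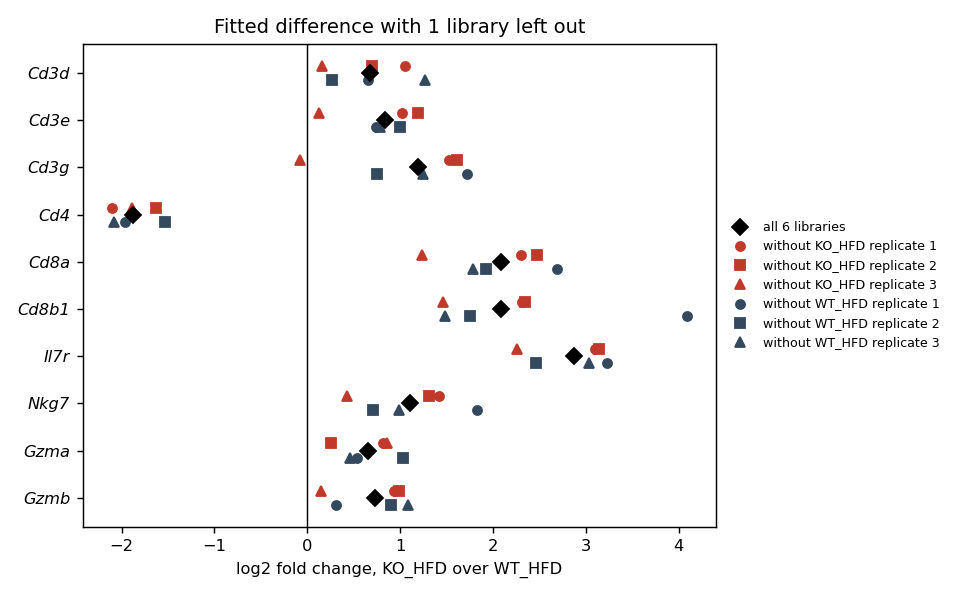
Log2 fold change of KO_HFD over WT_HFD for each marker gene with all 6 libraries (black diamonds) and with 1 library left out (red, a KO_HFD library; dark blue, a WT_HFD library; the shape gives its replicate number). Cd4 stays negative and Il7r stays at or above 2.26 throughout, and Cd3g reaches -0.08 without KO_HFD replicate 3.

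Per kilobase of exon (lengths from GENCODE vM21), Nkg7 was the most abundant of the 10 in both groups, at 1.58 ± 1.04 CPM per kb in the KO-labelled livers and 0.736 ± 0.541 in the WT-labelled livers (SD, n = 3 each). Il7r came next in the KO-labelled livers, at 0.861 ± 0.515 CPM per kb, and was number 8 in the WT-labelled livers, at 0.117 ± 0.068. Cd4 was the least abundant in the KO-labelled livers, at 0.187 ± 0.058 CPM per kb, and second to Nkg7 in the WT-labelled livers, at 0.687 ± 0.264. In the KO-labelled livers the genes ranked from 3 to 10 were Gzmb, Cd8b1, Cd8a, Cd3g, Cd3d, Cd3e, Gzma and Cd4, between 0.558 and 0.187 CPM per kb. In the WT-labelled livers those ranked from 3 to 10 were Gzmb, Cd3d, Cd3g, Gzma, Cd3e, Il7r, Cd8b1 and Cd8a, between 0.336 and 0.101 CPM per kb. Neighbours in either order differed by less than the larger of their SDs, except Cd4 and Gzmb in the WT-labelled livers, whose SDs were 0.264 and 0.201 CPM per kb.

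Ratios within a library do not depend on how libraries are scaled. Of the counts of Cd8a and Cd4 together, Cd8a took 51.9%, 56.6% and 79.2% in the KO-labelled livers, against 20.3%, 6.64% and 9.38% in the WT-labelled livers. The lowest KO-labelled and highest WT-labelled shares were thus far apart. Cd8a and Cd8b1 were higher, and Cd4 lower, in every KO-labelled library than in any WT-labelled one. Shares built from them therefore had to separate the groups. The permutation p-values below were fixed by this and are no further support. Exact Clopper-Pearson 95% intervals on counts divided by 4, which cover counting error only, ran from 34.8% to 67.6% in KO-labelled replicate 1 and from 9.05% to 35.7% in WT-labelled replicate 1, and overlapped only at their ends. The mean was 62.6% ± 14.6 in the KO-labelled livers and 12.1% ± 7.20 in the WT-labelled livers (SD, n = 3 each; exact permutation test, two-sided, p = 0.1, the smallest that 3 against 3 allows). With Cd8b1 added to Cd8a the mean was 70.7% ± 12.1 in the KO-labelled livers and 15.6% ± 11.8 in the WT-labelled livers (SD, n = 3 each; exact permutation p = 0.1).

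Ratios to the CD3 chains, picked once the values were known, separated the groups for Cd4, Cd8a and Il7r but not for Cd8b1. For each count of the 3 CD3 genes there were 0.630, 0.327 and 0.139 counts of Cd4 in the KO-labelled livers, against 1.37, 4.14 and 1.09 in the WT-labelled livers. For Cd8a the same ratio was 0.681, 0.427 and 0.528 in the KO-labelled livers, against 0.348, 0.294 and 0.113 in the WT-labelled livers. For Il7r it was 1.71, 1.66 and 1.22 in the KO-labelled livers, against 0.446, 0.196 and 0.377 in the WT-labelled livers. These 3 ratios did not overlap between the groups, and KO-labelled replicate 3, the highest library for the CD3 genes, was the highest in none of them. For Cd8b1 the ratio was 0.269, 0.273 and 0.198 in the KO-labelled livers, against 0.217, 0.0784 and 0 in the WT-labelled livers, and these overlapped.

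Set against Ptprc, which encodes the leukocyte surface phosphatase CD45, the summed markers overlapped between the groups. Ptprc had 2112, 1361 and 2810 counts in the KO-labelled livers, against 768, 510 and 641 in the WT-labelled livers (2.25-fold, adjusted p = 0.0511). The 10 markers summed to 294.5, 399.0 and 666 counts per 1000 Ptprc counts in the KO-labelled livers, against 505, 680.4 and 555 in the WT-labelled livers. The ranges overlapped, with means of 453 ± 192 in the KO-labelled livers and 580.3 ± 90.2 in the WT-labelled livers (SD, n = 3 each). Without Cd4 the means were 424.5 ± 197 in the KO-labelled livers and 327 ± 55.1 in the WT-labelled livers, also with overlapping ranges, and the direction of the difference turned. Cd4 alone had 35.5, 26.5 and 24.2 counts per 1000 Ptprc counts in the KO-labelled livers, against 164, 414 and 181 in the WT-labelled livers, and Il7r had 96.6, 134.5 and 214 in the KO-labelled livers, against 53.4, 19.6 and 62.4 in the WT-labelled livers. Neither of these overlapped. Cd8a had 38.4, 34.5 and 92.2 counts per 1000 Ptprc counts in the KO-labelled livers, against 41.7, 29.4 and 18.7 in the WT-labelled livers, and these did overlap. The 3 CD3 genes together had 56.3, 80.8 and 175 counts per 1000 Ptprc counts in the KO-labelled livers, against 100 to 165 in the WT-labelled livers, which overlapped.

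**Figure D4:**
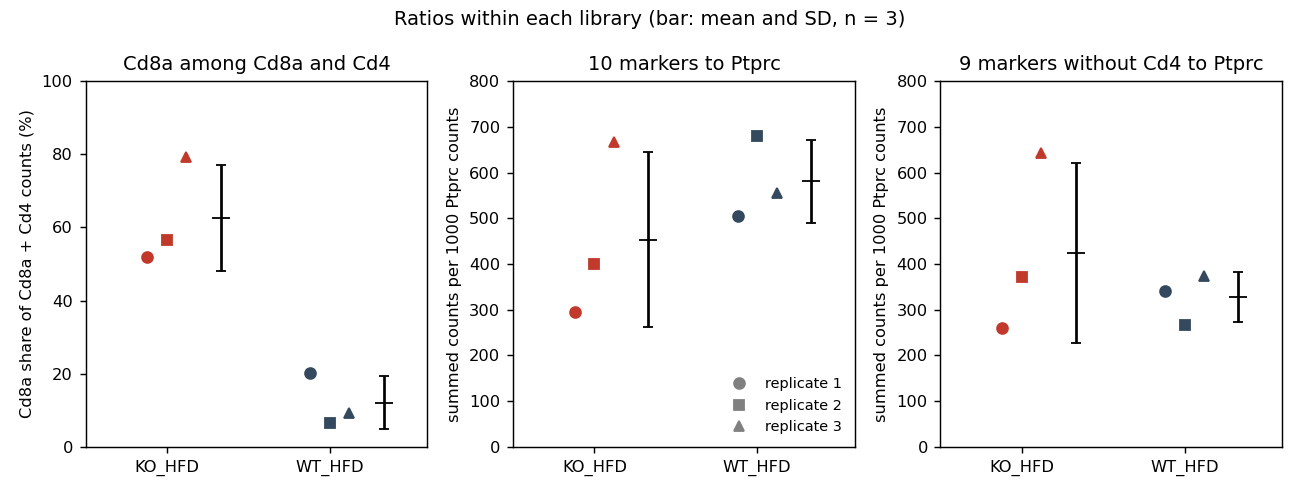
Ratios within each library, with KO_HFD on the left and WT_HFD on the right of each panel and bars for the mean and SD of 3: the Cd8a share of Cd8a and Cd4 counts in percent, the summed counts of the 10 markers per 1000 Ptprc counts, and the same sum without Cd4. The Cd8a share lies at 51.9% or more in the KO_HFD libraries and at 20.3% or less in the WT_HFD libraries, while both Ptprc ratios overlap between the groups.

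Other genes of the same cells were read from lists drawn up for this comparison, as descriptions beside the 1.44% called and the median of -0.02 over all tested genes. In the list of the T cell receptor complex and its proximal signalling 16 of 18 genes could be tested and none was called, with a median log2 fold change of 0.76, positive for 14 and negative for 2. Cd5, an inhibitory T cell surface receptor, had 24, 20 and 65 counts in the KO-labelled livers, against 3, 6 and 6 in the WT-labelled livers (4.86-fold, adjusted p = 0.123), and Lcp2, the adaptor SLP-76, was at 1.78-fold (adjusted p = 0.143). Lcp2 was at 12.6, 9.86 and 7.49 CPM in KO-labelled replicates 1, 2 and 3, and thus lowest in replicate 3. Which cells gave its RNA was not tested. The receptor's constant segments, chosen after their values were seen, had overlapping groups. Trac had 87, 35 and 178 counts in the KO-labelled livers, against 66, 12 and 31 in the WT-labelled livers, and Trbc1 had 44, 60 and 230 counts in the KO-labelled livers, against 32, 13 and 16 in the WT-labelled livers (adjusted p = 0.569 and 0.188).

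Among genes of T cell identity and homing 12 of 14 were tested, 1 was called lower and 0 higher, and the median was 0.63. The called gene was S1pr1, the sphingosine phosphate receptor by which lymphocytes leave tissues and which endothelium also expresses strongly. It fell to 25.2 ± 3.96 CPM in the KO-labelled livers, against 47.1 ± 3.60 CPM in the WT-labelled livers (SD, n = 3 each; 1.87-fold lower, adjusted p = 0.0447, and 0.0518 with libraries scaled by total counts). In the NK and cytotoxic granule list 17 of 25 genes passed the filter and none was called. All 17 had a positive log2 fold change, with a median of 1.11. On the higher side 7 had an unadjusted p under 0.05, against 12% of all tested genes. The groups did not overlap for 11, all higher, against 13.7% of all tested genes. Several of the 17 passed the filter through their KO-labelled libraries, so these counts describe the tested genes only. Such counts were not particular to this list. Of 11 tested pan-leukocyte genes, 10 were higher without overlap and 11 had an unadjusted p under 0.05. Of 14 macrophage and monocyte genes, 8 were higher and 2 lower without overlap, and 9 had an unadjusted p under 0.05, all higher. The granule proteoglycan Srgn and the transcription factor Zeb2, both also expressed in myeloid cells, were at 2.12-fold and 2.16-fold (adjusted p = 0.0511 and 0.0516). Ncr1, the NK receptor NKp46, chosen after its values were seen, had 26, 28 and 48 counts in the KO-labelled livers, against 5, 0 and 8 in the WT-labelled livers (adjusted p = 0.2). Gzmk, granzyme K, also chosen after its values were seen, was filtered out. It had 10, 4 and 56 counts in the KO-labelled livers and 0 in all 3 WT-labelled livers. Only the 56, in KO-labelled replicate 3, was over the limit of 12 counts.

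Of 13 checkpoint and regulatory T cell genes 12 were tested and none was called, with a median log2 fold change of 0.15, positive for 6 and negative for 6. Havcr2, the checkpoint receptor TIM-3, was at 3.10-fold and Tox, a transcription factor of exhausted T cells, at 2.18-fold (adjusted p = 0.0885 and 0.105). Tox was at 8.41, 10.8 and 5.36 CPM in KO-labelled replicates 1, 2 and 3, where Cd3e was at 0.705, 0.468 and 1.72 CPM. Which cells gave the RNA of Havcr2 and Tox was not tested. In the interleukin-7 and interleukin-15 receptor list 13 of 17 genes were tested and none was called, with a median of -0.03. Il2rg, the common chain with which the Il7r product pairs, averaged 6.80 ± 1.57 CPM in the KO-labelled livers and 2.97 ± 1.13 CPM in the WT-labelled livers (SD, n = 3 each; 2.29-fold, adjusted p = 0.0914), and Il21r was at 2.70-fold (adjusted p = 0.191). The ligand gene Il7, chosen after its values were seen, had 39, 42 and 86 counts in the KO-labelled livers, against 34, 38 and 56 in the WT-labelled livers (adjusted p = 0.908). Of the 11 gamma-delta T cell genes 5 had a row and 3 were tested, with 0 called, 1 positive and 2 negative. Blk, a kinase shared with B cells, was at a log2 fold change of -0.65 and the transcription factor Sox13 at -0.02 (adjusted p = 0.720 and 0.963). The receptor constant genes Trdc and Trgc1, chosen after their values were seen, were filtered out. Trdc had 8, 12 and 28 counts in the KO-labelled livers, against 6, 4 and 7 in the WT-labelled livers. Trgc1 had 13, 7 and 62 counts in the KO-labelled livers, against 4, 8 and 6 in the WT-labelled livers. All WT-labelled counts of both were under the limit of 12.

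Genes shared by all leukocytes, and most genes of the macrophage and monocyte list, lay on the same side as Il7r and Cd8a, and their part in those differences was not tested. The pan-leukocyte list had 2 of 11 tested genes called higher and all 11 positive, with a median of 1.09, and its 12 genes summed to between 207 and 283 CPM in the KO-labelled livers and between 101 and 169 CPM in the WT-labelled livers. The integrin chain Itgb2 rose 2.13-fold and the adhesion receptor Cd48 rose 2.95-fold (adjusted p = 0.0475 and 0.0489). In the macrophage and monocyte list 1 of 14 was called, Cd68, which rose to 39.4 ± 8.06 CPM in the KO-labelled livers, against 13.5 ± 3.10 CPM in the WT-labelled livers (adjusted p = 0.0390), and 10 of 14 were positive. That list summed to between 652 and 1326 CPM in the KO-labelled livers and between 418 and 653 CPM in the WT-labelled livers. The 4 calls S1pr1, Itgb2, Cd48 and Cd68 held without KO-labelled replicate 2 or WT-labelled replicate 1 (adjusted p = 0.0149 to 0.0397) and were lost without any 1 of the other 4 libraries (adjusted p = 0.0537 to 0.196). All 4 were also lost with a replicate block (adjusted p = 0.0535 to 0.0749), and Itgb2 and Cd48 with limma voom (adjusted p = 0.0509 and 0.0513).

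In the same list 4 genes, Marco, Clec4f, Timd4 and Vsig4, lay on the side of Cd4, and the groups of Timd4 and Vsig4 overlapped. The other 10 of its 14 genes were positive, among them Adgre1 at 1.89-fold and Csf1r at 1.28-fold (adjusted p = 0.0510 and 0.309). Marco, a scavenger receptor, had 641, 617 and 143 counts in the KO-labelled livers, against 1136, 949 and 573 in the WT-labelled livers, and Clec4f, a Kupffer cell lectin, had 7227, 7122 and 1498 counts in the KO-labelled livers, against 9180, 5606 and 7076 in the WT-labelled livers. Both were lowest in KO-labelled replicate 3. Neither passed the test (adjusted p = 0.3 and 0.496), and both were picked with their values known. Their part in the difference of Cd4 was not tested.

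Dendritic cell genes had 0 of 12 called, with a median of 0.44 and sums of 240.0 to 259 CPM in the KO-labelled livers and 227 to 284 CPM in the WT-labelled livers. Cd209a and Irf8 were nearest the threshold (4.50-fold and 1.56-fold, adjusted p = 0.1 and 0.165). Of the genes of the dendritic cells that carry CD8 alpha in mice, chosen after their values were seen, Xcr1 had 51, 30 and 157 counts in the KO-labelled livers, against 31, 7 and 7 in the WT-labelled livers, and Clec9a had 424, 321 and 381 counts in the KO-labelled livers, against 269, 147 and 205 in the WT-labelled livers (adjusted p = 0.281 and 0.564). The part of these cells in the Cd8a difference was not tested. B and plasma cell genes had 0 of 12 called, with a median of 0.20 and sums of 17.6 to 52.4 CPM in the KO-labelled livers and 15.4 to 29.2 CPM in the WT-labelled livers. Jchain and Cd22 were at 3.65-fold and 1.91-fold (adjusted p = 0.227 and 0.232). Neutrophil genes had 0 of 8 tested called and a median of -0.50, with Csf3r at 1.55-fold and Elane at a log2 fold change of -2.22 (adjusted p = 0.149 and 0.278), and Ly6g had 0 counts in all 3 KO-labelled livers, against 0, 3 and 8 in the WT-labelled livers, all under the limit of 12 counts. Hepatocyte genes had 0 of 10 called and a median of -0.31, with Serpina1a at -0.72 and Trf at -0.48 on the log2 scale (adjusted p = 0.151 and 0.326), and Alb at 1.30-fold (adjusted p = 0.463).

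**Figure D5:**
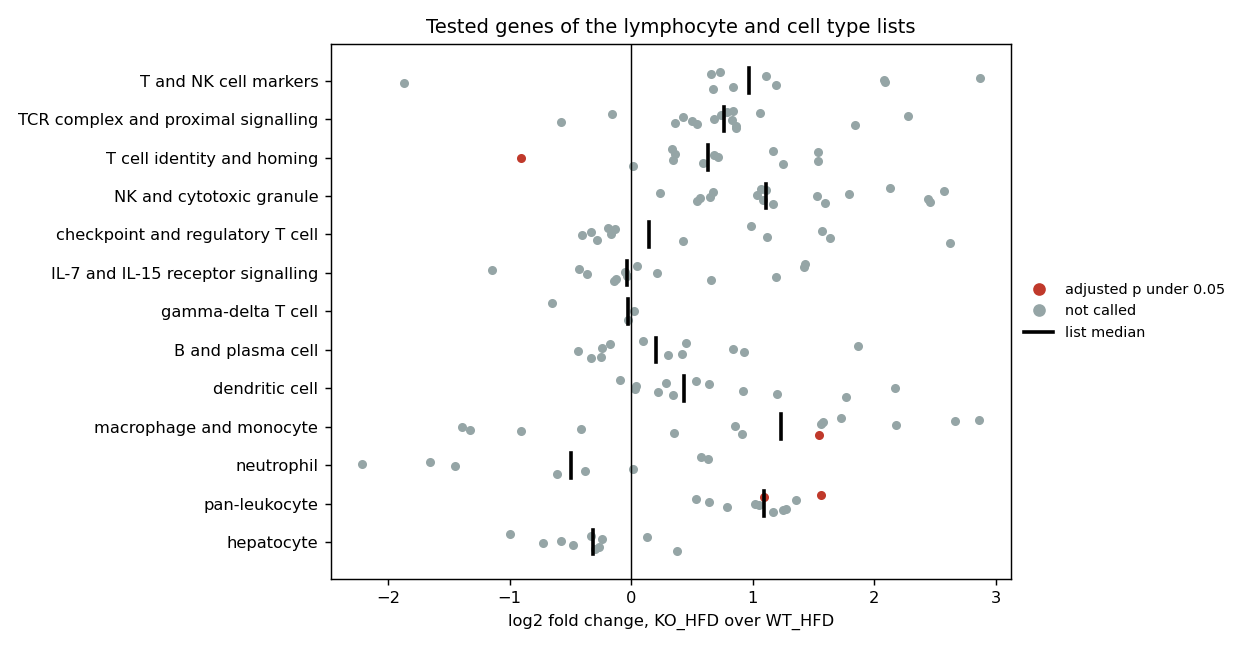
Log2 fold change of KO_HFD over WT_HFD for every tested gene of the 10 markers and 12 further lists, with 1 point per gene, black bars for list medians and red points for genes at an adjusted p under 0.05. The red points are S1pr1 on the negative side and Cd68, Itgb2 and Cd48 on the positive side, and none is among the 10 markers.

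The genes whose level over the 6 libraries was most like the markers were Cyp2a4, Cyp3a44, Cyp2b10, Camk1 and Rab11a, with a Pearson r of 0.997, 0.997, 0.996, 0.992 and 0.987 to the mean of the standardised log2 levels of the markers. They are 5 of 13390 genes compared, of which 309 had an r over 0.9. The steroid hydroxylase gene Cyp2a4 had 4.28, 7.80 and 436 CPM in the KO-labelled livers, against 1.71, 1.01 and 1.49 CPM in the WT-labelled livers. Like 8 of the 10 markers it was highest in KO-labelled replicate 3, and each r is over the same 6 libraries.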

How the data were processed

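Liver RNA was polyA-selected and made into dUTP second-strand libraries, per the labels' protocols. The values deposited by the authors are raw read counts per gene, 1 column per library. The submitters' processing notes name GRCm39 and edgeR; aligner, counter, annotation release and strand setting are not given in the sources used here. Columns were matched to samples by title.

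Genes were filtered with filterByExpr, scaled by TMM and tested with edgeR's quasi-likelihood F test (edgeR 4.0.16, limma 3.58.1, DESeq2 1.42.0, R 4.3.3), with Benjamini-Hochberg adjustment over 17606 genes. All 10 markers passed the filter. Standard errors were derived from F, and levels are CPM on the TMM scale. No library pair within a group was a duplicate (chi-square 63.0 or more per gene). The test was also run on simulated data that held no library standing apart and no steps in the counts, and the outcome is not reported here. The markers and lists were chosen with earlier results of these data known. Named genes were the markers, Atp7b, Ptprc, Alb, Cd68, up to 4 called genes per list or the 2 with the smallest p, and the 5 of most like level (log2 of CPM plus 0.5, mean of at least 1 CPM); others were chosen after their values were seen. The result of 1 listed gene is not reported here. Alternatives were other scalings, filters and tools, a replicate block, and libraries left out.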

Additional observations from a re-analysis of the deposited data

How the results depend on the processing

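Genes called numbered 253 in all and 1008 with total counts, 473 with no filter, 1867 with DESeq2, 71 with limma voom, 4 with the replicate block and 567 on counts divided by 4, an alternative chosen after seeing the data; with 1 library left out they ran from 0 to 912. Markers called higher numbered 0, and 1 (Il7r) with total counts, with no filter and on counts divided by 4, 2 (Il7r and Cd8a) with DESeq2, and 0 to 1 with 1 library left out. Markers called lower numbered 0, and 1 (Cd4) with DESeq2 and on counts divided by 4, where 7 of the 10 passed the filter. The adjusted p over the alternatives ran from 4.57e-05 to 0.184 for Il7r, from 7.59e-04 to 0.217 for Cd4 and from 0.0345 to 0.416 for Cd8a; the cause was not tested.

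With total counts the median log2 fold change was 0.31 over all genes (-0.02 with TMM) and 1.36 over the markers, and 93.4% of calls were higher (64.8% with TMM). Cd3g ran from -0.081 to 1.72 with 1 library left out and turned negative only without KO-labelled replicate 3. The difference in summed markers per 1000 Ptprc counts was -127, ran from -233.6 without KO-labelled replicate 3 to -47.7 without KO-labelled replicate 1 with 1 library left out (-77.1 without WT-labelled replicate 2), and was 97.1 without Cd4, also chosen after seeing the data. Deviations from the group mean were not correlated between libraries with the same replicate number (r of -0.02, -0.05 and -0.04). With 3 libraries per group these values cannot show whether such libraries shared a batch or another pairing. The replicate block called none of the markers.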
